A study of Homo sapiens with 4 samples.

Results

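The nuclear-encoded respiratory chain genes are the subunits of the electron transport chain and of ATP synthase whose genes lie in the nucleus. Genes on the autosomes and chromosome X were chosen by symbol (NDUFA, NDUFB, NDUFC, NDUFS and NDUFV followed by a number, SDHA to SDHD, UQCR, COX4 to COX8 and ATP5), and those with a pseudogene suffix were left out. The rule found 127 genes, of which 40 carried the suffix, so that 87 genes remained of the 57879 in the files. The 87 genes hold 83 distinct symbols, because NDUFA7, NDUFB8, SDHD and UQCR11 each have a second gene identifier. The rule reads symbols and chromosomes, not levels. Of the members, 38 belong to complex I, 5 to complex II, 9 to complex III, 17 to complex IV and 16 to complex V. NDUFA4 bears a complex I name but is known as a complex IV subunit and was counted there, and ATP5S and ATP5SL, which are not subunits of complex V, were counted apart. All 87 are protein-coding in GENCODE.

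The RNAseq libraries came from T24, a human bladder cancer line with little endogenous TET1, which was grown in RPMI with fetal calf serum. Cells carried either an empty lentiviral vector (EV) or the catalytic domain of TET1 (TET1-CD), a dioxygenase that oxidises 5-methylcytosine, and both were selected with puromycin. Each group had 2 libraries of this 1 cell line, and the labels do not say whether these came from separate cultures, so the p-values measure the spread between these libraries. All 4 libraries carry the same source label, T24_induced, which is not explained.

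The respiratory chain passes electrons from NADH (complex I) and succinate (complex II) through ubiquinone, complex III and cytochrome c to oxygen at complex IV. Complexes I, III and IV pump protons out of the matrix, and ATP synthase (complex V) uses the returning protons to make ATP. Complexes I, III, IV and V each join subunits made in the cytosol from nuclear genes with a few made inside the organelle from mitochondrial DNA, whereas complex II is wholly nuclear-encoded. NRF1, the ETS-family factor GABP and YY1 are known to bind the promoters of many of these nuclear genes.

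Promoter windows of 300 bases (250 before to 50 after the start, RefSeq, GRCh38.p14) were matched for 66 members in 78 windows, and 21 members had no entry, NDUFB9, NDUFS5 and ATP5B among them. On both strands, 3 strings were searched. The ETS and YY1 strings share the bases AAG at their ends, and their matches overlapped in 0 member windows and in 5 of all windows. Matches of the NRF1 and ETS strings overlapped in 0 member windows and in 2 of all windows. GCATGCGC, for NRF1, was in 15 member windows (19.2%) and in 3.05% of all 35116 windows. CCGGAAG, for GABP and other ETS factors, was in 21 (26.9%) against 10.3%. AAGATGGCG, for YY1, was in 10 (12.8%) against 1.75%. Member windows held more CpG dinucleotides, the substrate of DNA methylation, with a median of 21.5 against 14. Each of the 3 strings contains a CpG, and the windows compared were not matched for CpG content. The part of CpG content in the shares of matches was not tested. These matches describe the letters and do not show binding. The first 280 bases of 5 windows are printed with the matches in capitals. COX5A, NDUFA9 and UQCRH were higher in TET1-CD cells, while SDHB and SDHD, subunits of the same complex, had log2 fold changes of opposite sign.
COX5A, minus strand, chr15:74938044-74938323: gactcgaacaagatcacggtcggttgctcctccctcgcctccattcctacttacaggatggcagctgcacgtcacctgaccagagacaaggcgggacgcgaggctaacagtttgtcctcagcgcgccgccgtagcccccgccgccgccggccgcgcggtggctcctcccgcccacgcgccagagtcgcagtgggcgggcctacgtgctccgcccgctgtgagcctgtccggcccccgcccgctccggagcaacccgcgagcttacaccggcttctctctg
NDUFA9, plus strand, chr12:4648864-4649143: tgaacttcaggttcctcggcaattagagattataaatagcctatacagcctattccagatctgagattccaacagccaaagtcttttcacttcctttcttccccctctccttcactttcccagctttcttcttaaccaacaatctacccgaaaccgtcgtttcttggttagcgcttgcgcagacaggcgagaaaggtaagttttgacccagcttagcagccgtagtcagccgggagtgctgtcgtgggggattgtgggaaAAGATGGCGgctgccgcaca
UQCRH, plus strand, chr1:46303448-46303727: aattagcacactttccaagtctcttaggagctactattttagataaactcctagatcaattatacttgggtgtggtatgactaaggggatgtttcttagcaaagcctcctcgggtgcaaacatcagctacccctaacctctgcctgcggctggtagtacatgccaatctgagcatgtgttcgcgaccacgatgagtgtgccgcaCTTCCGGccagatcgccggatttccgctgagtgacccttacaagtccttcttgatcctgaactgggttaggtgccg
SDHB, minus strand, chr1:17054003-17054282: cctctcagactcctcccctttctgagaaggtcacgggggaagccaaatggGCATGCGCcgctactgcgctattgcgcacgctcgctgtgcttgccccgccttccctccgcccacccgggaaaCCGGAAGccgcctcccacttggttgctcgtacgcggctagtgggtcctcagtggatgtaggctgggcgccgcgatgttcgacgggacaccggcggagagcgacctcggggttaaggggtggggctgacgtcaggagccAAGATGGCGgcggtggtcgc
SDHD, plus strand, chr11:112086623-112086902: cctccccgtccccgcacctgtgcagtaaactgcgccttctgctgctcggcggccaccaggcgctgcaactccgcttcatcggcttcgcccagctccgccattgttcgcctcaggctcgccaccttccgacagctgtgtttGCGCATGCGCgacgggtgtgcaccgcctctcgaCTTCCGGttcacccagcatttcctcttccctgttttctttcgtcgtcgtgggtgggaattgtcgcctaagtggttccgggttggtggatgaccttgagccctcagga
The COX5A stretch had no match and 34 CpG. NDUFA9 had the YY1 string and 12 CpG, and UQCRH the ETS string on the opposite strand and 11 CpG. SDHD had the ETS string, also on the opposite strand, and the NRF1 string, read on both strands, with 25 CpG. SDHB held all 3 strings and 28 CpG. The YY1 string contains the letters ATG, and in NDUFA9 and SDHB its match lies after the start.

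The estimated counts summed to between 17442143 and 20295266 fragments per library. TET1 itself had 5.48 and 4.80 CPM (counts scaled to library size, normalised by TMM) in EV cells, against 167 and 169 CPM after TET1-CD transduction, a log2 fold change of 5.02 (SE 0.08, adjusted p = 4.9e-10 by edgeR), so the libraries match their labels. The files do not separate the cloned domain from the endogenous transcript. Of the epithelial markers, KRT7, KRT8 and KRT18 stood at or above 622 CPM in every library, while CDH1, UPK2, UPK3A and KRT5 were at or below 0.306 CPM. Of the 10 epithelial markers 6 were tested, and 4 of these were called higher in TET1-CD cells (66.7%, against 10.0% of all genes tested), with 0 lower. They were KRT7 (log2 fold change 0.34), KRT18 (0.18), KRT19 (1.01) and GATA3 (1.25). The last 2 were weakly expressed, KRT19 with 5.09 and 3.81 CPM in EV and 9.40 and 8.62 CPM in TET1-CD cells. GATA3 had 0.939 and 1.10 CPM in EV and 2.62 and 2.24 CPM in TET1-CD cells. The other tested markers, KRT8 and EPCAM, did not pass the test. KRT8 went the other way, with 775 and 778 CPM in EV and 744 and 730 CPM in TET1-CD cells (log2 fold change -0.08, SE 0.05). EPCAM had a log2 fold change of 0.54 (SE 0.21). The epithelial list summed to 2349 and 2331 CPM in EV and to 2655 and 2619 CPM with TET1-CD. Of 8 leukocyte, 3 endothelial, 6 fibroblast and 6 muscle markers found, 5 passed the filter on low counts. Of these, COL1A1 was called higher (background 10.0%) and ITGAM lower (background 9.61%). PTPRC, CD3E, PDGFRA and DES were at or below 0.114 CPM in every library, and KDR and VWF at or below 0.347 CPM. The fibroblast list summed to between 4.33 and 4.40 CPM in EV and between 15.7 and 16.4 CPM in TET1-CD cells, nearly all of it COL1A1. The leukocyte list summed to between 26.4 and 36.1 CPM in EV and between 24.2 and 24.3 CPM in TET1-CD cells, most of it CD68. Within that list ITGAM, an integrin of myeloid cells, had 1.09 and 1.68 CPM in EV and 0.171 and 0.408 CPM in TET1-CD cells (log2 fold change -2.19, SE 0.52, adjusted p = 0.0165), and CD14 lay between 0.456 and 0.867 CPM. The endothelial list summed to between 0.692 and 1.16 CPM in EV and between 0.912 and 1.17 CPM in TET1-CD cells, with CDH5 the sole marker tested (log2 fold change 0.88, SE 0.46, adjusted p = 0.221). The muscle list summed to at most 0.404 CPM in EV and to between 0.627 and 0.816 CPM in TET1-CD cells, where CKM, at 0 counts in EV, had 0.399 and 0.561 CPM. The part of these transcripts in the results on the respiratory chain was not tested.

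Of the 87 members, 77 passed the filter on low counts and were tested. Compared with EV, 6 of them were higher in TET1-CD cells at an adjusted p under 0.05 by edgeR (7.79%) and 0 were lower. Over all 14573 genes tested, 10.0% were higher and 9.61% lower. Among the 9708 genes with a mean of at least 10 CPM, a comparison chosen after the data were seen, these shares were 10.4% and 11.7%. The share of members called higher was thus below the background and is not a result about them. At an unadjusted p under 0.05, 10 members were higher (13.0%, background 16.8%) and 0 lower (background 16.4%). DESeq2 called 4 higher (5.19%, background 6.09%) and 0 lower (background 5.85%). No member combined an adjusted p under 0.05 with a change of 2-fold or more, as 3.77% of all genes did.

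The members differed less from 0 than other genes. Their median absolute log2 fold change was 0.07, against 0.16 over all genes tested and 0.12 over genes of at least 10 CPM. It was also 0.07 for the assembly factors of the complexes and 0.09 for the mitochondrial ribosomal protein genes, so the small size was not particular to the members. Leaving aside the second NDUFB8 identifier, which had at most 1.31 CPM (log2 fold change 0.82, SE 0.75), all tested members lay between -0.23 and 0.28 on the log2 scale. The sign leaned upwards. In 52 of 77 members (67.5%) the log2 fold change was above 0, against 50.2% of all genes. Both TET1-CD libraries lay above both EV libraries for 30 members (39.0%, background 30.8%) and below them for 8 (10.4%, background 30.2%). This lean was not particular to the members. Of 75 mitochondrial ribosomal protein genes tested, 50 were above 0, with 35 apart above EV and 11 apart below. Of 51 assembly factors tested, 26 were above 0, with 14 apart above EV and 12 apart below. The median log2 fold change was 0.05 for the members and 0.001 for all genes. This median was 0.003 without EV replicate 1 and 0.08 without EV replicate 2, so the upward lean rested in large part on EV replicate 1, in which the members were lowest.

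**Figure D1:**
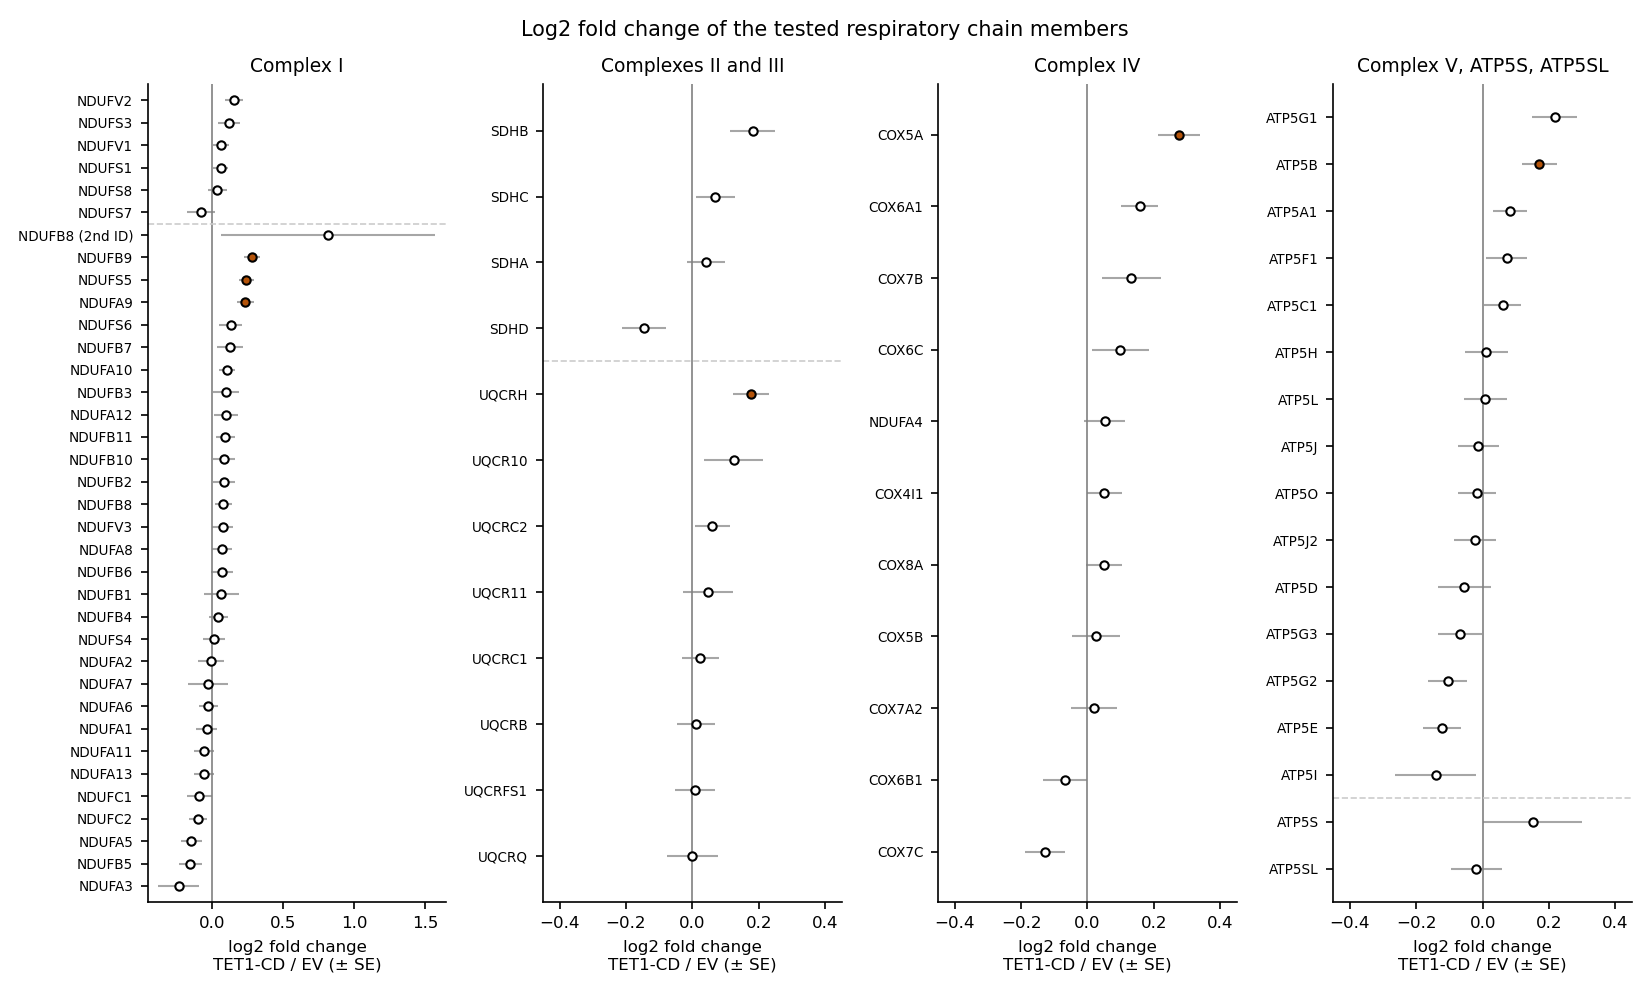
Log2 fold change (TET1-CD over EV) of 76 of the 77 tested members, with its SE as the bar, in panels by complex. Filled points have an adjusted p under 0.05 by edgeR, the dashed line in the first panel parts the core subunits from the accessory ones, and apart from the second NDUFB8 identifier (wide bar) every point lies between -0.23 and 0.28.

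Which members passed the threshold depended on single libraries. Without TET1-CD replicate 1, only the second UQCR11 identifier was called higher (1.28% of members, background 2.85%), and without TET1-CD replicate 2, 0 members were (background 3.47%). The count over all genes, in both directions, fell from 2865 to 832 and 1014. Without EV replicate 2, 13 members were called higher (16.7%, background 12.4%), while the count over all genes rose to 3779 of 15201. Without EV replicate 1 it rose to 3760 of 14996. In that fit 7 members were higher (8.97%, background 12.4%) and 4 (SDHD, COX7C, ATP5E and ATP5G2) were lower (5.13%, background 12.7%). The members called higher without EV replicate 1, and those called higher without EV replicate 2, included the second UQCR11 identifier. It had 0 counts in both EV libraries, so it passed the filter only through the TET1-CD libraries. The log2 fold changes of the 6 members kept their sign in each of these fits, and lay between 0.13 and 0.32.

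The 6 members span 4 of the complexes. NDUFB9, an accessory subunit of the membrane arm of complex I, is on chromosome 8 (GRCh37, 125551344 to 125580751, plus strand). It had 82.4 and 86.1 CPM in EV and 104 and 101 CPM in TET1-CD cells. The groups did not overlap, and the log2 fold change was 0.28 (SE 0.06, adjusted p = 0.00794). TATDN1 and MTSS1 on the other strand overlap it, and whether the counting used strand is not stated. NDUFS5, another accessory subunit of complex I, (chromosome 1, 39491990 to 39500308, plus strand), had 102 CPM in both EV libraries and 121 and 120 CPM in TET1-CD cells, a log2 fold change of 0.24 (SE 0.05, adjusted p = 0.0117). NDUFA9, which sits at the junction of the peripheral and membrane arms, (chromosome 12, 4758261 to 4798454, plus strand), had 56.97 and 59.16 CPM in EV and 68.0 and 68.8 CPM in TET1-CD cells (log2 fold change 0.24, SE 0.06, adjusted p = 0.0208). In all 3 genes the gap between the groups was several times the difference within either.

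COX5A, a nuclear subunit of complex IV on the matrix side, (chromosome 15, 75212132 to 75230509, minus strand), had 77.9 and 72.9 CPM in EV and 94.0 and 88.6 CPM in TET1-CD cells, which is a log2 fold change of 0.28 (SE 0.06, adjusted p = 0.0139). ATP5B, the catalytic beta subunit of the ATP synthase head, (chromosome 12, 57031959 to 57039798, minus strand), had 555 and 571 CPM in EV and 627 and 642 CPM in TET1-CD cells, a log2 fold change of 0.17 (SE 0.05, adjusted p = 0.0434). UQCRH, the hinge protein of complex III, (chromosome 1, 46769303 to 46782448, plus strand), had 119 and 125 CPM in EV and 137 and 139 CPM in TET1-CD cells (log2 fold change 0.18, SE 0.06, adjusted p = 0.0491). DESeq2 gave UQCRH an adjusted p of 0.136 and NDUFA9 one of 0.095, and did not call either. Just outside the threshold stood ATP5G1, a gene for the c subunit of the rotor ring, with 41.0 and 39.5 CPM in EV and 46.3 and 47.3 CPM in TET1-CD cells (log2 fold change 0.22, SE 0.07, adjusted p = 0.0505).

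**Figure D2:**
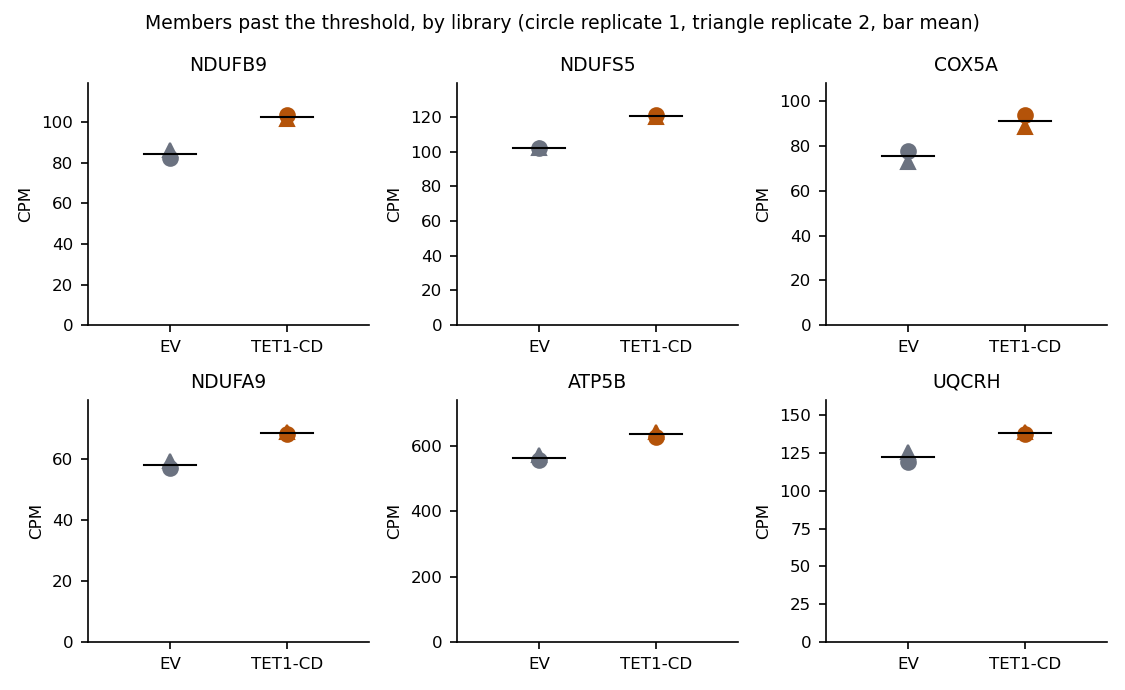
CPM of the 6 members with an adjusted p under 0.05 in each library, 1 panel per gene, with axes from 0. Circles are replicate 1, triangles replicate 2 and bars group means; in each panel both TET1-CD libraries lie above both EV libraries, by a small fraction of the level.

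Complex I had 37 tested members, of which 25 had a log2 fold change above 0 (background 50.2%), with a median of 0.07. Of the 37, 3 were called higher (background 10.0%) and 0 lower (background 9.61%). The 7 nuclear core subunits carry the flavin and the iron-sulfur clusters or build the quinone site. Of these 7, 6 were above 0 (background 50.2%) and 0 were called (background 10.0% higher and 9.61% lower). NDUFV2, an iron-sulfur subunit, had the largest difference of them, with 78.2 and 82.9 CPM in EV and 92.4 and 86.9 CPM in TET1-CD cells (log2 fold change 0.16, SE 0.06, adjusted p = 0.111). NDUFV1, which binds NADH and the flavin, had a log2 fold change of 0.07, NDUFS1 of 0.06, NDUFS3 of 0.12, NDUFS8 of 0.04 and NDUFS7 of -0.07, each with an SE of at most 0.10. By FPKM, a level per transcript length, the core subunits ranged from 17.9 (NDUFS7) to 92.2 (NDUFV2) as the mean of 4 libraries. The summed CPM of the core subunits was 446 and 453 in EV and 475 in both TET1-CD libraries.

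Among the accessory subunits, NDUFS5 had the highest level per length, 204 FPKM, and apart from the second NDUFB8 identifier (0.67 FPKM) the lowest was NDUFA7 with 15.2 FPKM. The most negative value was that of NDUFA3, with 8.60 and 10.2 CPM in EV and 8.60 and 7.39 CPM in TET1-CD cells (log2 fold change -0.23, SE 0.14, adjusted p = 0.294), whose groups overlapped at this shallow level. NDUFB5 (log2 fold change -0.15) and NDUFA5 (-0.14) were below EV in both TET1-CD libraries but did not pass the test. For NDUFB5 the difference rested on TET1-CD replicate 2, with 49.6 and 53.2 CPM in EV and 49.5 and 43.1 CPM in TET1-CD cells. NDUFA11 and NDUFC2 were the other members of complex I whose TET1-CD libraries both lay below EV.

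Complex II differed among its subunits. SDHB, the iron-sulfur subunit, had 48.0 and 52.3 CPM in EV and 57.5 and 56.1 CPM in TET1-CD cells (log2 fold change 0.18, SE 0.07, adjusted p = 0.0866). SDHD, a membrane anchor, had 84.7 and 91.4 CPM in EV and 76.2 and 82.9 CPM in TET1-CD cells (log2 fold change -0.14, SE 0.07, adjusted p = 0.164). The groups did not overlap in either gene, in opposite directions, and neither passed the test. SDHA, the flavoprotein, had a log2 fold change of 0.04 (SE 0.06), and SDHC, the other anchor, of 0.07 (SE 0.06). Per length, the 4 subunits lay between 41.5 (SDHA) and 65.4 FPKM (SDHC).

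Complex III had 8 tested members, 7 of them above 0 (background 50.2%), with a median log2 fold change of 0.04 (-0.02 without EV replicate 1). After UQCRH, the smallest p were those of UQCR10, with 23.1 and 25.7 CPM in EV and 26.2 and 26.9 CPM in TET1-CD cells (log2 fold change 0.12, SE 0.09, adjusted p = 0.373), and of UQCRC2, a core subunit, with a log2 fold change of 0.06 (SE 0.05). UQCRFS1, the Rieske iron-sulfur protein, had 63.4 and 65.2 CPM in EV and 65.9 and 63.4 CPM in TET1-CD cells, and the groups overlapped. UQCRH had the highest level per length (214 FPKM) and UQCR10 the lowest (31.3 FPKM).

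Complex IV is the complex with tissue isoforms, and T24 cells expressed 1 gene of each pair. COX4I1, COX6A1, COX6B1, COX7A2, COX7B and COX8A lay between 46.9 and 184 CPM in the 4 libraries. Their partners COX4I2, COX6A2 and COX8C, the first known from lung and the second from muscle, had 0 counts in every library. COX6B2 had 1 to 3 counts per library, COX7A1, the heart and muscle form, 0 to 4, and COX7B2 0 to 6. A floor of 3 counts corresponds to between 0.148 and 0.173 CPM in these libraries and covers counting error only. COX7A1 with 4 counts in EV replicate 2 and COX7B2 with 6 in TET1-CD replicate 2 were above it in 1 library each. None of the 6 genes passed the filter on low counts, and they were not tested. Of the 11 tested members 9 were above 0 (background 50.2%), with a median log2 fold change of 0.05 (-0.02 without EV replicate 1). COX6A1 followed COX5A, with 135 and 143 CPM in EV and 155 and 154 CPM in TET1-CD cells (log2 fold change 0.16, SE 0.06, adjusted p = 0.076). COX4I1 and COX8A each had a log2 fold change of 0.05, COX7B of 0.13, COX7A2 of 0.02 and COX6B1 of -0.07. COX7C had the most negative value, with 116 and 124 CPM in EV and 108 and 112 CPM in TET1-CD cells (log2 fold change -0.13, SE 0.06, adjusted p = 0.165). COX6A1 was the most abundant per length (256 FPKM), and NDUFA4 the least of those tested (36.6 FPKM).

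Complex V had 7 tested members above 0 (background 50.2%) and 8 below it, and ATP5B as the single call (background 10.0% higher). The median log2 fold change was -0.01 (0.03 without EV replicate 2 and 0.02 without TET1-CD replicate 1). Complex V contains the member with the highest level per length, ATP5B with 346 FPKM, and the lowest of the complex was ATP5I with 31.0 FPKM. Of the 5 subunits of the catalytic head, ATP5A1 (alpha) had a log2 fold change of 0.08 (SE 0.05), ATP5C1 (gamma) of 0.06 (SE 0.05), ATP5D (delta) of -0.05 (SE 0.08) and ATP5E (epsilon) of -0.12 (SE 0.06, adjusted p = 0.173). ATP5G1, ATP5G2 and ATP5G3 encode the same mature c subunit. ATP5G2 had 108 and 115 CPM in EV and 102 and 105 CPM in TET1-CD cells (log2 fold change -0.11, SE 0.06, adjusted p = 0.235), and ATP5G3 had a log2 fold change of -0.07 (SE 0.07). Summed, the 3 genes had 260 and 269 CPM in EV and 250 and 266 CPM in TET1-CD cells, so that the level of their total overlapped although ATP5G1 and ATP5G2 did not. The remaining untested members were ATP5L2, which had 0 counts throughout, and the second identifiers of NDUFA7 (0 counts), SDHD (0 to 3.38 estimated counts) and UQCR11 (0 in both EV libraries and 4.54 and 16.8 estimated counts in TET1-CD cells). ATP5S and ATP5SL had overlapping groups and log2 fold changes of 0.15 (SE 0.15) and -0.02 (SE 0.08).

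The sum over all members was 5798 and 6048 CPM in EV and 6160 and 6193 CPM in TET1-CD cells, or 5923 ± 176 (SD, n = 2) against 6176 ± 23.1 (SD, n = 2). The groups did not overlap, and the difference of 4.28% was close to the distance between the EV libraries. With 2 against 2 libraries an exact two-sided permutation test cannot give a p below 0.333, so that no such test is given. As a share of each library, members took 0.578% (95% Wilson interval 0.575 to 0.582) and 0.60% (0.597 to 0.604) in EV and 0.618% (0.614 to 0.621) and 0.622% (0.618 to 0.625) in TET1-CD cells. These intervals cover counting error only. By complex, the mean sum was 5.09% higher in TET1-CD cells for complex I, 4.05% for complex III, 4.64% for complex IV and 3.98% for complex V, without overlap. The groups nearly touched in complex V, at 2121 CPM in EV replicate 2 and 2123 CPM in TET1-CD replicate 1. In complex IV the nearest sums were 1049 CPM in EV replicate 2 and 1054 CPM in TET1-CD replicate 2. For complex II it was 1.55% higher and the groups overlapped. Without ATP5B the sum of complex V was 0.765% higher, and the groups overlapped.

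**Figure D3:**
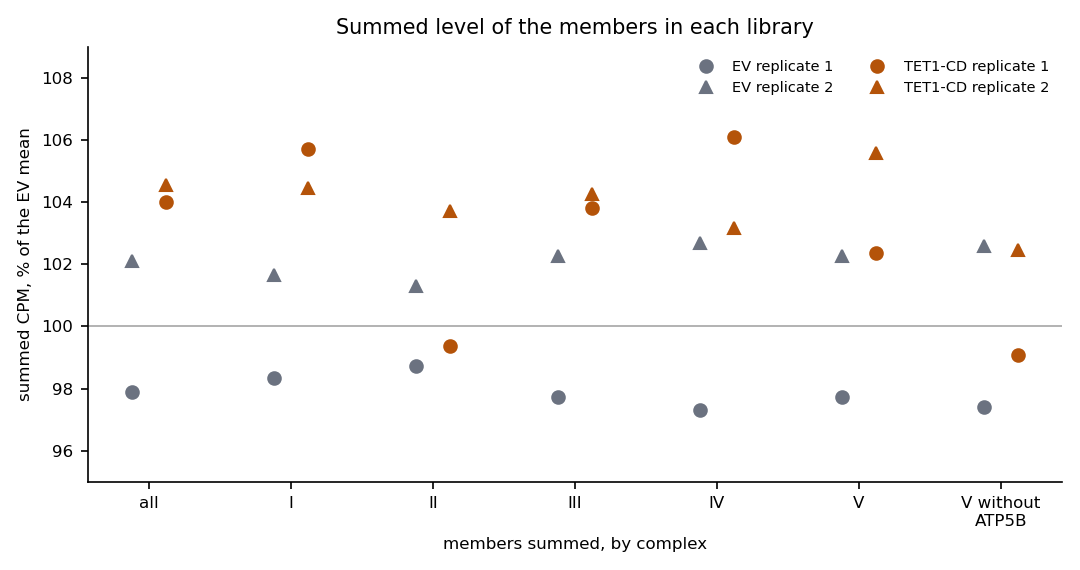
Summed CPM of the members in each library, as a percentage of the EV mean of that set, for all members and by complex, on an axis that does not start at 0. Grey symbols are EV and brown symbols TET1-CD (circle replicate 1, triangle replicate 2); for complex II and for complex V without ATP5B the groups overlap, and EV replicate 1 is the lowest library in each set.

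The subunits encoded by mitochondrial DNA, which are no members, were lower in TET1-CD cells for the most part. All 13 had a log2 fold change below 0, and 10 were called lower (background 9.61%), with a median of -0.29. MT-ND1 (-0.46), MT-ND2 (-0.33) and MT-ND4L (-0.42) had the smallest adjusted p. Their sum was 23763 and 27255 CPM in EV and 19794 and 21775 CPM in TET1-CD cells. EV replicate 2 held the higher sum of both classes among the EV libraries. The difference between nuclear and mitochondrially encoded subunits was not tested.

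**Figure D4:**
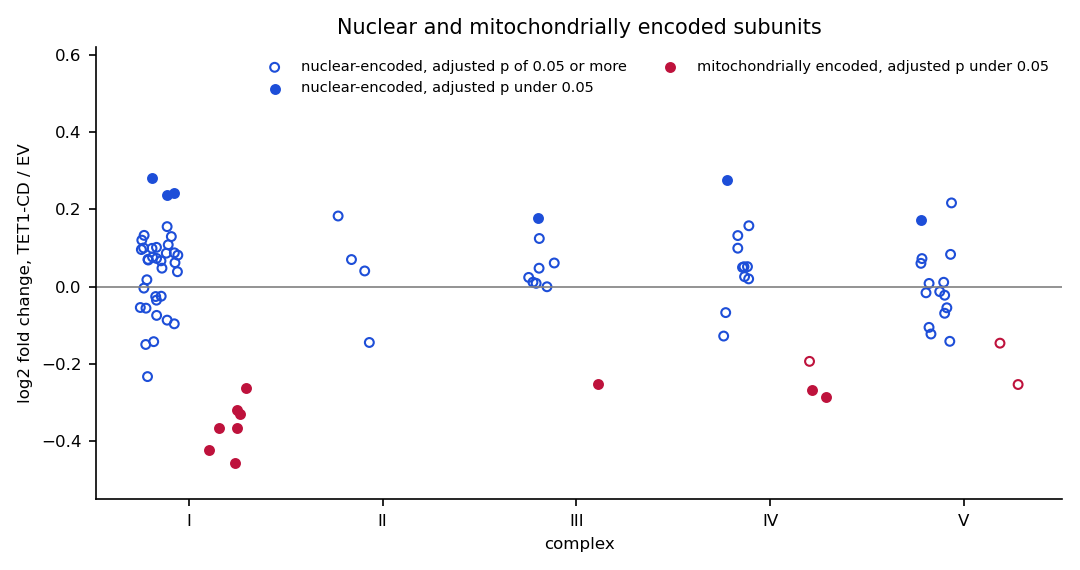
Log2 fold change (TET1-CD over EV) of nuclear-encoded (blue) and mitochondrially encoded (red) subunits by complex, each point a gene, filled where the adjusted p is under 0.05 by edgeR, without the second NDUFB8 identifier. Red points all lie below 0, with a median of -0.29, whereas blue points lie on both sides of 0, between -0.23 and 0.28.

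Assembly factors insert cofactors and join the subunits. Of 51 tested, 3 were higher (5.88%, background 10.0%) and 1 was lower (1.96%, background 9.61%), with a median log2 fold change near 0. TIMMDC1, a complex I assembly factor, had a log2 fold change of 0.21 (SE 0.06, adjusted p = 0.0325). In complex IV assembly, COA4 (0.40) and COX10 (0.41), which makes haem O, were higher, and COX15 (-0.26), which makes haem A from it, was lower. A further list held subunits with other symbols and cytochrome c, but also ubiquinone synthesis genes (COQ and PDSS). It also held ETFA, ETFB, ETFDH, GPD2 and DHODH, which pass electrons to ubiquinone, and AOX1, an aldehyde oxidase outside the chain. Of its 21 tested genes, 2 were higher (9.52%, background 10.0%) and 0 lower (background 9.61%). These were CYCS, cytochrome c, with 184 and 181 CPM in EV and 224 and 226 CPM in TET1-CD cells (log2 fold change 0.30, SE 0.05), and CYC1, cytochrome c1 of complex III, whose symbol lies outside the rule (log2 fold change 0.23, SE 0.06).

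Among 17 tested regulators of mitochondrial biogenesis, 0 were higher and 1 was lower (5.88%, background 9.61%). This was GABPB2, a beta subunit of GABP (log2 fold change -0.39, SE 0.10, adjusted p = 0.0248). NRF1 had 17.4 and 16.4 CPM in EV and 20.2 and 20.6 CPM in TET1-CD cells (log2 fold change 0.27, SE 0.09, adjusted p = 0.0722). Of the 17, 8 had a log2 fold change above 0 and 9 below it. GABPA had a log2 fold change of -0.19 (SE 0.07), whereas that of GABPB1, another beta subunit of GABP, was 0.22 (SE 0.09, adjusted p = 0.109). YY1 had a log2 fold change of -0.08 (SE 0.05) and TFAM, which packages mitochondrial DNA, of -0.03 (SE 0.07). PPARGC1A, the coactivator PGC-1alpha, had at most 0.051 CPM. Its relatives were expressed, PPARGC1B with a log2 fold change of 0.51 (SE 0.17, adjusted p = 0.0608) and PPRC1 with 0.17 (SE 0.07, adjusted p = 0.0982). PPARGC1B had 4.05 and 4.51 CPM in EV and 6.67 and 5.56 CPM in TET1-CD cells.

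In the citrate cycle and pyruvate entry, 5 of 19 genes were higher (26.3%, background 10.0%) and 0 lower (background 9.61%), OGDH (0.37), SUCLG1 (0.30) and PDHA1 (0.19) among them. A list of glycolysis and glucose uptake genes also held BNIP3, PDK1 and CA9, which hypoxia is known to induce and which are not glycolytic enzymes. Of its 22 tested genes, 1 was higher (ALDOC, 0.52, 4.55% of the list, background 10.0%) and 12 were lower (54.5%, background 9.61%). The smallest p were those of HK2 (-0.72), a hexokinase, BNIP3 (-0.62), a mitophagy receptor, and SLC2A3 (-0.88), a glucose transporter. Of 75 mitochondrial ribosomal protein genes, 4 were higher (5.33%, background 10.0%) and 1 was lower (1.33%, background 9.61%). Their median log2 fold change was 0.04 (0.05 for the members). MRPS30 (0.34) was higher and MRPL34 (-0.36) lower. Of 79 cytosolic ribosomal protein genes, also short and abundant transcripts, 0 were higher and 18 were lower (22.8%, background 9.61%), with a median of -0.11 and RPS28 (-0.45) and RPL34 (-0.32) in front.

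Single transcripts were compared in addition, after the data had been seen. Of 661 member transcripts listed, 267 could be tested and 0 were called by edgeR (smallest adjusted p = 0.242), while 1 of 43213 transcripts was called in all (0.00231%), that of TET1. At an unadjusted p under 0.05 there were 15 member transcripts (5.62%), against 11.2% of all. In genes of at least 10 CPM, 105 member transcripts held at least 10% of their gene in both groups, and for 7 of them (6.67%, background 5.13%) the shares did not overlap and differed by at least 10 points. They belong to ATP5C1, NDUFA5, NDUFB1 and NDUFC1. This share was near the background and is not a result about the members. In ATP5C1 and NDUFA5 both main transcripts are counted, with shares that move against each other.

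ATP5C1, the gamma subunit that forms the rotating stalk of ATP synthase, had the smallest p of them. Its transcripts ENST00000356708 and ENST00000335698 differ in a cassette exon of 37 bases (exon 9 of 10 in GENCODE, GRCh37, chr10:7848937-7848973, plus strand) and hence in the last codons. The coding ends are printed with the shared bases in lower case and the bases after the shared exon, stop codon included, in capitals.
ENST00000356708, with the exon: atctctggtgctgcagctctGGATTAA
ENST00000335698, without the exon: atctctggtgctgcagctctGTAA
The shared stretch is chr10:7844798-7844817, followed by chr10:7848937-7848943 in the form with the exon and by chr10:7849622-7849625 in the form without it. The form without the exon took 28.8% and 28.2% of the estimated counts of ATP5C1 in EV, against 14.8% and 17.5% with TET1-CD. The form with it took 70.0% in both EV libraries and 82.8% and 81.3% in TET1-CD cells. The groups did not overlap, and the log2 fold changes were -0.75 (SE 0.12, adjusted p = 0.242) and 0.29 (SE 0.06, adjusted p = 0.263), neither of which passed the test. Shares rest on the authors' assignment of fragments to transcripts. The total level of ATP5C1 was 134 and 141 CPM in EV and 142 and 144 CPM in TET1-CD cells.

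**Figure D5:**
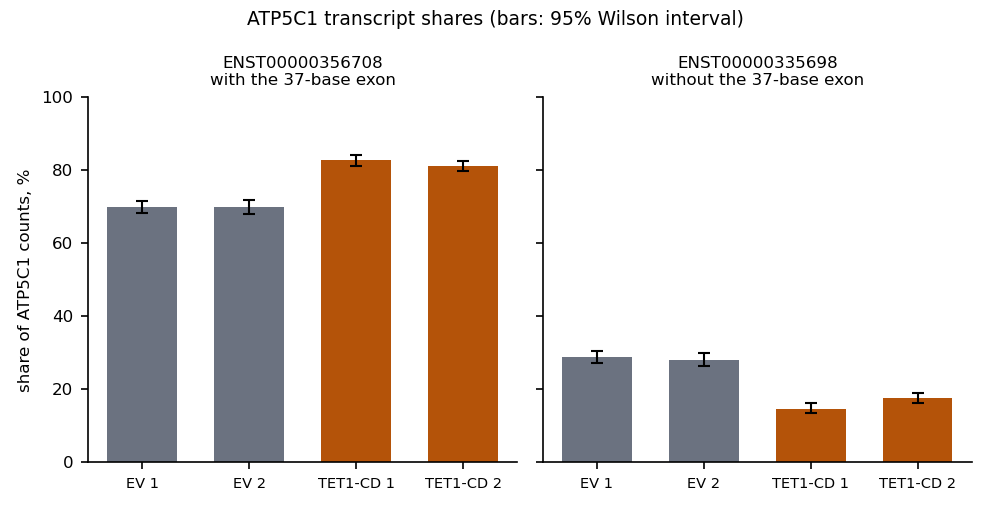
Share of ATP5C1 estimated counts, in percent, held by the transcript with (left) and without (right) the 37-base exon in each library, with 95% Wilson intervals that cover counting error only. The share without the exon is 28.8% and 28.2% in EV, against 14.8% and 17.5% with TET1-CD.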

How the data were processed

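The RNAseq data comprise 2 libraries of EV and 2 of TET1-CD T24 cells. Per transcript, the authors deposited expected counts (estimated fragments that need not be whole) and FPKM values, on GRCh37 coordinates. The submitters' processing notes name cutadapt 1.9.1, HISAT2 2.0.1, HTSeq 0.6.1, DESeq2 and hg19 with no role. The quantifier, annotation release and strand setting are not given in the sources used here. Expected counts were summed per gene and rounded, and TET1-CD was compared with EV by edgeR 4.0.16 (quasi-likelihood, TMM, filterByExpr, Benjamini-Hochberg over 14573 genes, R 4.3.3). The SE was computed as the log2 fold change over the root of edgeR's F statistic. FPKM were summed over transcripts. Reads of near-identical copies and overlapping genes could be split between members and others by the authors' assignment. The libraries of a group differed by more than sampling noise (mean chi-square per gene 6.46 for EV and 2.75 for TET1-CD).

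The members and lists were chosen with earlier results of these data known. Named are, in each complex, the members with the smallest p, all called members, isoform pairs, core and SDH subunits, the highest and lowest by FPKM and the untested members, and up to 3 genes per direction from each list. Shifts between transcripts of a gene were chosen after their values were seen. The test was tried on simulated data. Alternatives were DESeq2 1.42.0, limma-voom (limma 3.58.1), RLE, library size only, other filters, a replicate block, 1 identifier per symbol, mean FPKM (pseudocount 0.1), another place for NDUFA4 and the omission of each library. The value of 1 member is not reported here.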

Additional observations from a re-analysis of the deposited data

How the results depend on the processing

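Over all alternatives other than leaving out a library, 4 to 7 members were called higher and 0 lower, and the medians of the members and of each complex kept their direction. The members called were not the same throughout. ATP5G1 was called under limma-voom, library size only, a filter of 10 counts in every library and 1 identifier per symbol. DESeq2 called 1739 of all genes, against 2865 by edgeR. Without the filter on low counts, 1 member (the second UQCR11 identifier, 0 counts in EV) passed the 2-fold threshold. Leaving out 1 library at a time gave 0 to 13 members higher, 0 to 4 lower, 0 to 1 past 2-fold and 832 to 3779 genes called in all. Over the same omissions the median log2 fold change ran from 0.003 to 0.08 for all members, from 0.027 to 0.089 for complex I, from 0.02 to 0.09 for complex II, from -0.015 to 0.091 for complex III, from -0.02 to 0.08 for complex IV and from -0.064 to 0.025 for complex V, and TET1 from 4.93 to 5.12. Without EV replicate 1 the medians of complexes III and IV were below 0, and without EV replicate 2 or TET1-CD replicate 1 that of complex V was above 0. Each of the 6 called members lost its call when either TET1-CD library was left out, NDUFA9 also under DESeq2 (adjusted p = 0.095), and UQCRH also under DESeq2 (adjusted p = 0.136), limma-voom (0.0524), the replicate block (0.0603), 1 identifier per symbol (0.0508) and without EV replicate 1 (0.064). The cause was not tested. With the replicate number as a block, 5 members were higher, 0 lower and 3235 genes were called. Same-numbered libraries did not deviate together (correlation 0.007 over 14573 genes), so the numbers were not taken as pairs.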
